A study of Mus musculus with 24 samples.

Results

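Transverse aortic constriction (TAC) is an operation that narrows the aorta, so that the left ventricle has to pump against a raised pressure. The 16 libraries described here, of 24 in the series, are the 8 TAC hearts and the 8 sham-operated hearts of C57BL/6 mice. They form 2 cohorts that share no library. The labels mark one cohort LVH, with 4 hearts taken 2 weeks after TAC (TAC-LVH) and 4 Sham-LVH hearts, and the other HF, with 4 hearts taken 8 weeks after TAC (TAC-HF) and 4 Sham-HF hearts. They are named here the 2-week and the 8-week cohort. The labels give no time after surgery for the shams, no sex and no age, and do not say whether the 4 libraries of a group came from separate mice, so p-values measure the spread between these libraries. All 16 libraries were chosen by their labels alone. The question was which transcripts TAC changed in common at both times, including small changes that 4 hearts against 4 lack the power to show. It was answered with 1 fit of the 8 TAC against the 8 sham libraries in which the cohort was an additive term, so that each TAC heart was in effect compared with the shams of its own cohort. The other 8 libraries, from sedentary and from wheel-running mice, were used only for a comparison with running.

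A heart under raised pressure thickens its wall by enlarging its muscle cells. As background, the adult muscle cell then turns on genes of the fetal heart, such as those of natriuretic peptides and slow myosin, and turns down genes for burning fatty acids and for handling calcium and potassium. Fibroblasts are activated and lay down collagen, and macrophages gather, and with time the pump can fail.

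The libraries held 17998364 to 30353572 counts, and 18646 to 20284 genes had at least 1 count in a library. On the first principal component, with 39.6% of the variance, the TAC libraries lay at 17.4 to 47.5 and the sham libraries at -43.7 to -21.3, and the second, with 13.4%, separated the cohorts. Mitochondrially encoded transcripts took a smaller share of the counts after TAC, 54.3% ± 3.3 (SD, n = 4) against 62.3% ± 1.96 in the 2-week cohort and 55.2% ± 2.05 against 64.1% ± 2.51 in the 8-week cohort. The mean difference of -8.37 percentage points had the smallest p that the exact two-sided permutation test within cohorts can give (p = 0.000408, 4900 arrangements, adjusted p = 0.00122 over 6 measures). The 7SL RNA, part of the signal recognition particle, took 6.35% ± 0.652 against 4.75% ± 0.505 and 5.92% ± 0.265 against 3.9% ± 0.619 (n = 4 each; exact permutation p = 0.000816, adjusted p = 0.00163). A smaller mitochondrial share by itself raises the shares of all other RNAs. As a share of the counts outside mitochondrial genes, 7SL RNA was 1.92 percentage points higher after TAC, with a larger p (exact permutation p = 0.0106, unadjusted). Total counts did not differ detectably (exact permutation p = 0.284). These shares bear on direction. The fit scaled libraries by TMM, which sets the typical gene to no change (median log2 fold change 0.00054); scaled to library totals instead, the median gene was 0.37 higher after TAC, and 91.8% of the calls were increases in place of 50.8%. Every direction given below is therefore relative to the median gene, and library-total values stand beside the lists and genes that they change most. Scaled to totals outside mitochondrially encoded genes, the median gene was 0.07 higher, and 63.9% of the calls were increases. Of the 6238 calls under TMM scaling, 1091 changed sign under library totals and 0 under totals outside mitochondrially encoded genes. Whether the mitochondrial share played a part in any single result was not tested.

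The joint fit called a TAC effect for 6238 of 14463 genes tested, at an adjusted p under 0.05 (edgeR's quasi-likelihood test, Benjamini-Hochberg adjustment; 43.1%). Of these 3172 were higher (21.9%) and 3066 lower (21.2%). Most changes were modest. The median size was 0.499 on the log2 scale, 598 increases and 317 decreases reached 2-fold, and 1455 called genes (23.3%) had a fold change under 1.25. For 2194 genes (15.2% of those tested) the 4 TAC values lay wholly on one side of the 4 sham values in each cohort and on the same side in both, 1131 higher (7.82%) and 1063 lower (7.35%).

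Each cohort fitted alone called fewer genes, 4717 of 14224 at 2 weeks (33.2%) and 4032 of 13621 at 8 weeks (29.6%). Of the shared calls, 2346 were called in both cohorts alone, 1775 in the 2-week cohort only, 1124 in the 8-week cohort only, and 993 in neither (6.87% of the genes tested). The typical SE of a log2 fold change fell from 0.138 and 0.141 in the separate fits to 0.107 in the joint one (medians over 13542 genes tested in all 3 fits). Among shared effects smaller than 0.25 on the log2 scale, 45.1% of 696 genes were called in neither cohort alone and 2 in both, and among those of 1 or more, 64.8% of 915 were called in both. The cohorts pointed the same way for 71.8% of all genes tested in the 3 fits, called or not.

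**Figure D1:**
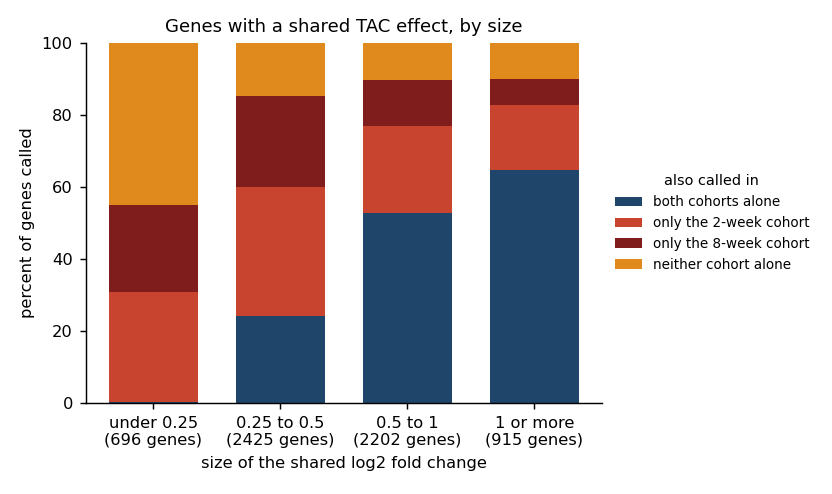
Genes with a shared TAC effect, grouped by the size of the log2 fold change (x axis, with the number of genes), and the percent of each group that was also called in both cohorts alone, in only one, or in neither (y axis, colours). The share called in neither is 45.1% below 0.25 and 10.2% at 1 or more; 88 of the 93 genes behind the latter share were too rare to be tested in at least 1 cohort alone.

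The largest shared increases were those of load-induced genes of the muscle cell and of matrix genes. Nppa, which encodes atrial natriuretic peptide, a hormone that lowers blood pressure and returns in the loaded ventricle, rose 18.01-fold and Myh7, the slow myosin heavy chain of the fetal ventricle, 18.2-fold. Acta1, the skeletal form of alpha-actin, rose 15.05-fold, and Ankrd1, a stretch-responsive protein of the sarcomere, 5.09-fold. Nppb, the gene of brain natriuretic peptide and the source of a blood test for heart failure, rose 5.5-fold. The promoters of 4 of these genes that have a single entry among the RefSeq promoter sequences (build GRCm38.p6) are shown because all are muscle genes that moved together. Each run is the 150 bases before the start of the transcript, 5′ to 3′ on the strand of the gene. Capitals mark the letters TATAAA (the core promoter element named after it), CATTCC (the MCAT element, bound by TEAD factors) and AGATAA (bound by GATA factors), or their reverse complements. All were searched on both strands, together with TGANTCA (bound by AP-1).
Nppa (chr4:148000572-148000721, + strand): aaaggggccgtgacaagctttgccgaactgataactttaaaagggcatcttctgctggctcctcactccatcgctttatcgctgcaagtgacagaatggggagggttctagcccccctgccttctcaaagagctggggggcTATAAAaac
Nppb (chr4:147985750-147985899, + strand): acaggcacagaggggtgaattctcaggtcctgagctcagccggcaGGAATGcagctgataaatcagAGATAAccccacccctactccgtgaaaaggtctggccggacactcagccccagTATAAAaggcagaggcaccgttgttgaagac
Acta1 (chr8:123894776-123894925, - strand): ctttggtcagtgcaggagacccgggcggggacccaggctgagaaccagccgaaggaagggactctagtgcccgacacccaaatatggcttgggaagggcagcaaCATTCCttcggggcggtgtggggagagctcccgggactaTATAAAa
Ankrd1 (chr19:36119845-36119994, - strand): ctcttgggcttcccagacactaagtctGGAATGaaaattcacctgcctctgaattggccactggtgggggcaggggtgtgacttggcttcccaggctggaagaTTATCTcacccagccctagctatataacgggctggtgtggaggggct

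The letters TATAAA occurred in 3 of these 4 windows, CATTCC in 3 and AGATAA in 2, and TGANTCA in 0. Over the 250 bases before the start, 13.3% of 218 genes that were at least 2-fold higher with no overlap in both cohorts held TATAAA, 12.4% of 89 genes at least 2-fold lower did, and 6.67% of 8293 tested genes with 1 promoter entry did. For TGANTCA the shares were 9.63%, 8.99% and 3.96%, for CATTCC 13.8%, 12.4% and 10.6%, and for AGATAA 6.88%, 7.87% and 5.5%. All 4 shares were thus above those of all promoters, among genes that rose and among genes that fell. These are counts of letters, given without a test.

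These genes separated every TAC heart from every sham heart. Nppa stood at 21.7, 27.8, 46.5 and 33.6 CPM (counts scaled to a common library size by TMM) in the Sham-LVH hearts and 792, 703, 429.8 and 605 in the TAC-LVH hearts, and at 19.3, 20.1, 28.4 and 21.1 in Sham-HF and 388, 327, 325 and 437 in TAC-HF. Its lowest TAC value was 325 and its highest sham value 46.5 CPM (log2 fold change 4.17, SE 0.17, adjusted p = 4.4e-12). Myh7 read 52.4, 21.7, 25.6 and 27.1 CPM in Sham-LVH and 1136, 894, 461 and 984 in TAC-LVH, and 47.96, 77.2, 70.5 and 87.5 in Sham-HF and 1516, 729, 718 and 504 in TAC-HF (log2 fold change 4.19, SE 0.34, adjusted p = 1.8e-07). The TAC hearts ranged widely for Myh7, from 461 to 1516 CPM, yet all stood far above the highest sham at 87.5. Reads of Gm13054, which overlaps Nppa on the opposite strand, and of Mhrt, which overlaps Myh7, cannot be told apart from theirs where strand was not used, and no source used here gives the strand setting. This limit also holds for the 74 of 150 genes described that an annotated gene overlaps on the opposite strand, Acta1, Dchs2, Myh6, Ltbp2 and Phkg1 among them.

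Ankrd1 was at 273, 300.1, 284 and 384 CPM in Sham-LVH and 1318, 1037, 1128 and 1354 in TAC-LVH, and at 264, 184, 173 and 183 in Sham-HF and 1401, 1117, 1333 and 1508 in TAC-HF (log2 fold change 2.35, SE 0.14, adjusted p = 3.5e-10). Acta1 was at 64.2, 79.5, 96.4 and 53.2 CPM in Sham-LVH and 593, 604, 627 and 677 in TAC-LVH, and at 70.5, 41.8, 44.5 and 35.8 in Sham-HF and 1239.8, 1114, 1289 and 1508 in TAC-HF (log2 fold change 3.91, SE 0.28, adjusted p = 4.2e-08). Both genes were high in each of the 8 TAC hearts, and for Acta1 the 8-week TAC hearts all stood above the 2-week ones. For Acta1 the effect itself differed between the cohorts, being 1.65 larger on the log2 scale at 8 weeks (SE 0.264, adjusted p = 0.0148 for the difference).

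Nppb was called jointly but missed by 1 cohort alone. Its values were 31.4, 40.8, 26.4 and 50.98 CPM in Sham-LVH and 238, 238, 205 and 306 in TAC-LVH, and 188, 28.7, 75.8 and 32.3 in Sham-HF and 311, 288, 475 and 419.8 in TAC-HF. One Sham-HF heart stood far above the other shams, although still below every TAC heart of its cohort. The 8-week cohort alone missed the threshold (log2 fold change 2.19, adjusted p = 0.0534). The 2-week cohort alone called the gene (log2 fold change 2.72, SE 0.20, adjusted p = 4e-06). The joint fit called it too (log2 fold change 2.46, SE 0.35, adjusted p = 5.6e-05), with a larger SE and adjusted p than the 2-week cohort alone.

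**Figure D2:**
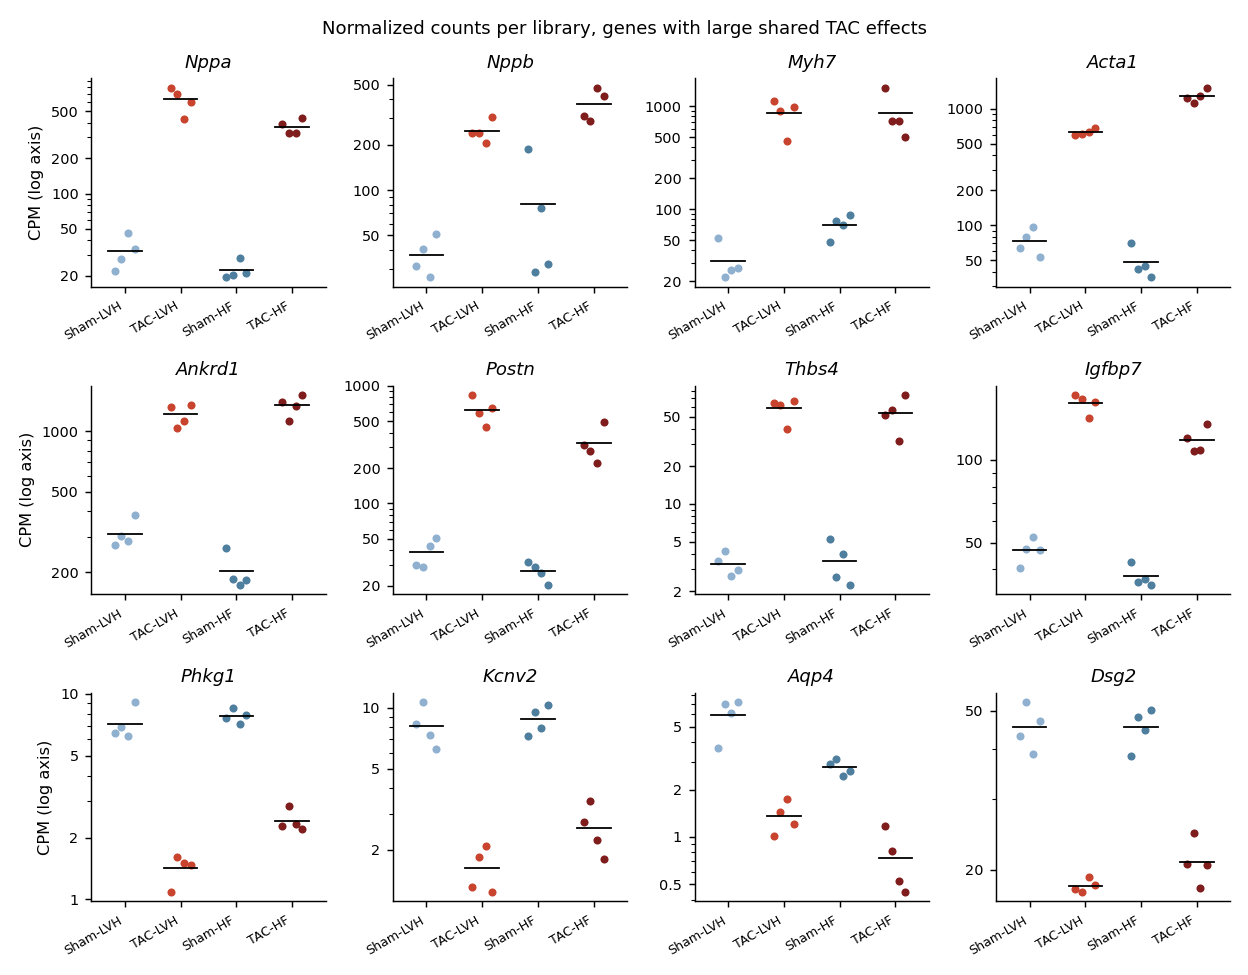
Normalized counts (CPM, log axis) of 12 genes in the 16 libraries; each point is a heart, the 4 groups stand side by side and the black line is the group mean. In each panel the TAC points of a cohort lie wholly above (first 8 genes) or wholly below (last 4 genes) the sham points of that cohort, as for Nppa (shams up to 46.5, TAC from 325) and Phkg1 (shams from 6.26, TAC up to 2.85).

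Genes of secreted and matrix proteins were among the other large increases. Thbs4, a matricellular protein, was at 3.47, 4.2, 2.64 and 2.94 CPM in Sham-LVH and 64.9, 61.7, 39.6 and 66.9 in TAC-LVH, and at 5.21, 2.6, 3.95 and 2.26 in Sham-HF and 51.7, 57.1, 31.8 and 74.5 in TAC-HF (log2 fold change 4.04, SE 0.20, adjusted p = 5.8e-10). Postn, the periostin gene and a mark of activated fibroblasts, read 29.8, 28.9, 43.8 and 51.1 CPM in Sham-LVH and 833, 588, 443 and 649.5 in TAC-LVH, and 31.7, 28.9, 25.6 and 20.5 in Sham-HF and 312, 282, 221 and 490.2 in TAC-HF (log2 fold change 3.82, SE 0.20, adjusted p = 3.2e-10). Gdf15, a stress cytokine, was rare in shams, with 0.261, 0.0583, 0 and 0.0744 CPM in Sham-LVH and 0.634, 0.232, 0.422 and 0.125 in Sham-HF, against 1.56, 1.04, 0.733 and 1.65 in TAC-LVH and 7.72, 4.52, 6.68 and 10.2 in TAC-HF (log2 fold change 4.1, SE 0.33, adjusted p = 1.7e-08). No sham heart of a cohort reached a TAC heart of that cohort for any of the 3. Ltbp2, a matrix protein of the latent TGF-beta binding family (15.98-fold) was also among the largest, as was Gm13054 (14.8-fold), the transcript opposite Nppa.

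Apart from that of Nppa, the increases with the smallest p were smaller. Igfbp7, a secreted protein that binds insulin-like growth factors, was at 40.6, 47.5, 52.5 and 46.96 CPM in Sham-LVH and 172, 166, 142 and 163 in TAC-LVH, and at 42.5, 36.1, 36.9 and 35.2 in Sham-HF and 121, 108, 109 and 136 in TAC-HF (log2 fold change 1.71, SE 0.07, adjusted p = 4.4e-12). Svep1, a large adhesion protein of the extracellular space, read 23.4, 28.4, 24.5 and 29.2 CPM in Sham-LVH and 131, 119.6, 97.02 and 139.9 in TAC-LVH, and 20.8, 21.7, 21.5 and 16.3 in Sham-HF and 101, 80.3, 72.8 and 115 in TAC-HF (log2 fold change 2.2, SE 0.10, adjusted p = 6.9e-12). Each rose by nearly the same factor in both cohorts, by 1.78 and 1.64 on the log2 scale for Igfbp7 and by 2.21 and 2.19 for Svep1. Pamr1 (log2 fold change 2.8), the collagen VIII chain gene Col8a1 (3.04), the secreted integrin beta-like protein gene Itgbl1 (2.45), Srpx2 (1.9) and Serpinf1, which encodes pigment epithelium-derived factor (1.82), followed by p, with adjusted p from 8.2e-12 to 4.1e-11. The products of at least Igfbp7, Svep1, Col8a1, Srpx2 and Serpinf1 are secreted.

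The largest decreases concerned genes of several kinds. Phkg1, the catalytic subunit of the kinase that switches on glycogen breakdown in muscle, was at 6.46, 6.88, 6.26 and 9.08 CPM in Sham-LVH and 1.09, 1.61, 1.5 and 1.48 in TAC-LVH, and at 7.6, 8.53, 7.12 and 7.84 in Sham-HF and 2.28, 2.85, 2.33 and 2.21 in TAC-HF (log2 fold change -2.0, SE 0.13, adjusted p = 4.1e-10). Kcnv2, a modulating subunit of voltage-gated potassium channels, read 8.29, 10.6, 7.34 and 6.29 CPM in Sham-LVH and 1.31, 1.85, 2.08 and 1.2398 in TAC-LVH, and 7.21, 9.56, 7.91 and 10.3 in Sham-HF and 2.74, 3.46, 2.24 and 1.79 in TAC-HF (log2 fold change -2.04, SE 0.16, adjusted p = 7e-09). Aqp4, a water channel, went from 3.66, 6.99, 6.1 and 7.14 to 1.02, 1.45, 1.74 and 1.2103 CPM and from 2.92, 3.11, 2.42 and 2.64 to 1.168, 0.814, 0.527 and 0.449 (log2 fold change -2.06, SE 0.18, adjusted p = 1.9e-08). The Aqp4 levels of the Sham-HF hearts were all below those of the Sham-LVH hearts, so that the decreases started from different levels. Pfkfb1, which sets the level of a strong activator of glycolysis, fell 4.58-fold, the galectin gene Lgals4 4.49-fold, the muscle chloride channel gene Clcn1 4.23-fold, the acyl-CoA thioesterase gene Acot1 3.88-fold and the carboxylesterase gene Ces1d 3.67-fold.

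Apart from that of Phkg1, the decreases with the smallest p were smaller. Ppm1l, a protein phosphatase gene, was at 37.4, 37.5, 34.8 and 39.9 CPM in Sham-LVH and 16.7, 18.1, 19.1 and 19.1 in TAC-LVH, and at 42.99, 42.5, 44.01 and 46.7 in Sham-HF and 23.1, 25.1, 20.3 and 22.9 in TAC-HF (log2 fold change -0.99, SE 0.06, adjusted p = 1.3e-10). Dsg2, a cadherin of the desmosomes that tie heart muscle cells together, read 43.2, 52.4, 38.97 and 46.996 CPM in Sham-LVH and 17.9, 17.6, 19.2 and 18.3 in TAC-LVH, and 38.5, 48.2, 44.9 and 50.3 in Sham-HF and 20.7, 24.7, 17.98 and 20.5 in TAC-HF (log2 fold change -1.214, SE 0.08, adjusted p = 5.8e-10). In both, the highest TAC value lay far below the lowest sham value. Asb15, an adaptor of a muscle ubiquitin ligase (-1.141), Maob, monoamine oxidase B (-1.192), Slc25a42, the carrier of coenzyme A into mitochondria (-1.33), Dglucy, D-glutamate cyclase (-1.27), and Cpeb3, a regulator of mRNA translation (-1.142), were the others, with log2 fold changes in parentheses and adjusted p from 4.8e-10 to 2.5e-09.

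**Figure D3:**
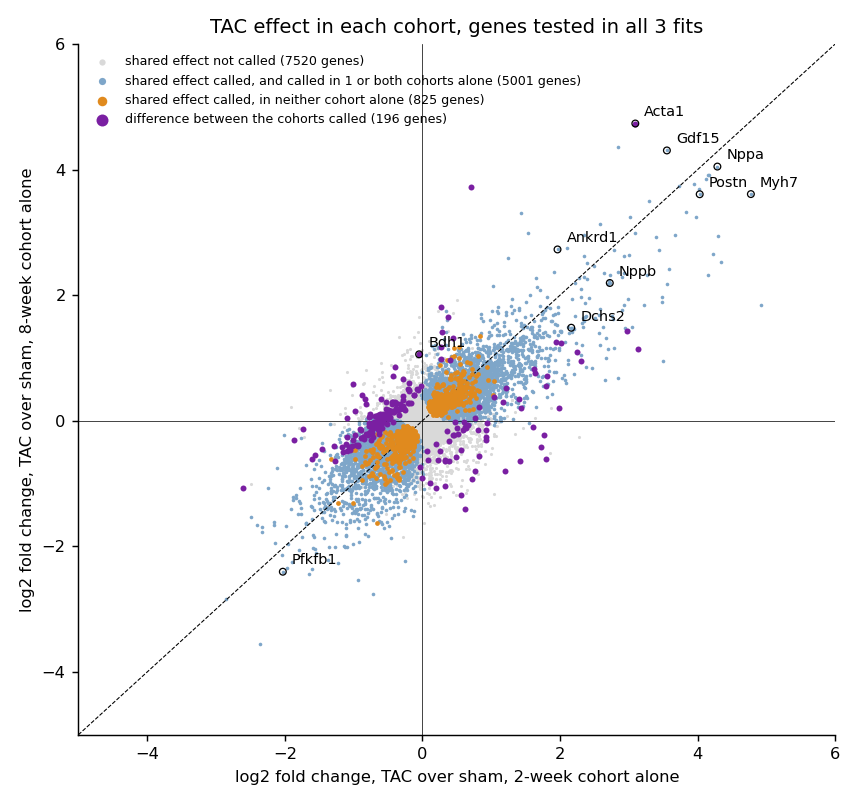
Log2 fold change of TAC over sham in the 2-week cohort alone (x axis) and in the 8-week cohort alone (y axis) for the 13542 genes tested in all 3 fits; the dashed line marks equal effects and colours mark the call. Genes called only by the joint fit (825 of them tested in both cohorts, orange) lie close to the origin near the dashed line, and Acta1 lies above the line with 3.09 and 4.73.

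Matrix genes rose together. Of 22 collagen genes tested, 21 rose and 0 fell, against 21.9% and 21.2% of all genes, with a median log2 fold change of 1.47. The separate fits called 22 higher at 2 weeks and 21 at 8 weeks, with medians of 2.02 and 1.191. The size of the rise was less uniform: the difference between the cohorts was called for 4 of the 22, with 16 at an unadjusted p under 0.05. Col8a2, a chain of the network-forming collagen VIII, rose 12.7-fold and Col12a1, which bridges collagen fibrils, 12.05-fold. Of 26 genes that fold, cut and crosslink collagen, 21 rose and 1 fell (median 0.64), among them the crosslinking oxidase gene Loxl3 (2.49), the procollagen processing enhancer gene Pcolce (1.195) and the prolyl hydroxylase gene P3h3 (1.03). Of 36 TGF-beta and BMP signalling genes, 18 rose and 2 fell (median 0.40), with the ligand gene Tgfb3 at 1.42 and the secreted Fstl1 at 2.02. The TGF-beta median was 0.65 in the 2-week and 0.17 in the 8-week cohort, and this difference was not tested for the list. Among 38 integrin, laminin and costamere genes 17 rose and 10 fell (median -0.01; 26 and 2, median 0.36, under library totals), the integrins Itgb5 (0.91) and Itga9 (0.99) with the first and the muscle membrane gene Sgca (-0.67) with the second.

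Cell markers moved with these genes. Summed over all 20 markers, the activated fibroblast level was 137 to 193 CPM in Sham-LVH and 1022 to 1751 in TAC-LVH, and 102 to 195 in Sham-HF and 638 to 1149 in TAC-HF, with 18 of 20 markers higher and 0 lower (median log2 fold change 2.62). Resident fibroblast markers summed to 982 to 1271 CPM in Sham-LVH and 1299 to 1769 in TAC-LVH, and to 856 to 1133 in Sham-HF and 1281 to 1434 in TAC-HF, with 11 of 14 higher and 2 lower. Lum (log2 fold change 1.39), Mfap5 (2.53) and Pi16 (1.27) were among those that rose. Cardiomyocyte markers summed to 57282 to 64173 CPM in Sham-LVH and 38412 to 46258 in TAC-LVH, and to 61081 to 64742 in Sham-HF and 47243 to 55627 in TAC-HF, so that the sum was lower in each TAC heart than in any sham heart of its cohort, and 8 of 13 markers were called lower. Scaled to library totals, 3 cardiomyocyte markers were called higher and 4 lower, and their median turned from -0.34 to 0.01. Under totals outside mitochondrially encoded genes, 1 was called higher and 7 lower, with a median of -0.27. In whole hearts fewer cells of a type and less RNA per cell cannot be told apart, and the part that cell numbers play in the results was not tested.

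Immune genes rose in both cohorts. Of 20 macrophage and monocyte markers 16 rose and 0 fell (median 0.85), and their sum was 188 to 291 CPM in Sham-LVH, 377 to 488 in TAC-LVH, 141 to 213 in Sham-HF and 241 to 361 in TAC-HF. The pore-forming Mpeg1 had 1.45 and Adgre1, the gene of the F4/80 antigen, 1.231. Of 35 interferon response genes 30 rose and 0 fell (median 0.63), with the antiviral genes Ifit3 at 1.01 and Trim30a at 0.70. Of 37 complement and chemokine genes, 25 rose and 2 fell, with the chemokine gene Cxcl16 at 1.09 and C1qb, a chain of the first complement component, at 0.88. Markers of other immune cells were scarce: of 14 T and NK cell, 10 B cell, 10 neutrophil and 8 mast cell markers, 2, 3, 3 and 2 were frequent enough to test.

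Endothelial markers gave small increases under TMM scaling. Their sum was 966 to 1059.8 CPM in Sham-LVH and 1057 to 1185 in TAC-LVH, and 941 to 1156 in Sham-HF and 1082 to 1132 in TAC-HF, with overlap in both cohorts. The joint fit called 7 of 16 higher and 0 lower (median 0.17; 14 and 0, median 0.54, under library totals), as for the secreted Egfl7 (0.29), the caveolin gene Cav1 (0.21) and Pecam1 (0.23). The list medians were 0.24 in the 2-week and 0.06 in the 8-week cohort. Smooth muscle and pericyte markers split under TMM scaling, with 5 higher and 2 lower of 14, the contractile Tagln at 0.84 and the potassium channel subunit Abcc9 at -0.73. Under library totals 12 of these markers were higher and 1 lower, with a median of 0.52 in place of 0.16. Their sum overlapped in the 2-week cohort (853 to 944 CPM in Sham-LVH, 900 to 951 in TAC-LVH). It was lower without overlap in the 8-week cohort (848 to 883 in Sham-HF, 744 to 832 in TAC-HF). List medians were 0.29 and -0.03. The difference between the cohorts was called for 0 of the 14, with 7 at an unadjusted p under 0.05.

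Genes of energy metabolism were mostly lower. Of 37 genes for the uptake and oxidation of fatty acids, the main fuel of the adult heart, 35 fell and 0 rose (median -0.69), led by the fatty acid transporter gene Slc27a1 (-1.26), the lipase gene Pnpla2 (-0.82) and the electron transfer gene Etfa (-0.95). Of 30 genes of the tricarboxylic acid cycle and pyruvate dehydrogenase, 23 fell and 0 rose (median -0.50), with Sdha, a subunit of succinate dehydrogenase, at -0.81, Mdh2, malate dehydrogenase, at -0.65 and the regulatory kinase gene Pdk2 at -0.78. The 13 mitochondrially encoded protein genes all fell (median -0.56; 8 called, median -0.19, under library totals), among them mt-Nd4 (-0.77) and mt-Nd5 (-0.79) of complex I, as did 36 of 64 nuclear genes of the respiratory chain, with 0 higher (median -0.34), Ndufab1 of complex I at -0.64 and Cyc1 of complex III at -0.62. Scaled to library totals, 25 fatty acid and 12 cycle genes were still called lower and 2 and 2 higher. The median of the nuclear respiratory chain then turned to 0.01, with 8 lower and 1 higher. Under totals outside mitochondrially encoded genes that median was -0.27, with 31 lower and 0 higher. The nuclear respiratory chain genes were also less uniform over time, with 45 called lower at 2 weeks and 13 at 8 weeks in the separate fits, and the difference between the cohorts was called for 1 of them, with 46 at an unadjusted p under 0.05 (medians -0.59 and -0.08). At that unadjusted threshold 27 fatty acid and 23 cycle genes differed too, with medians of -0.97 and -0.71 at 2 weeks and -0.49 and -0.28 at 8 weeks. Ppargc1a, a master coactivator of mitochondrial genes, fell 2.32-fold, and the mitochondrial fusion gene Mfn2 (-0.61) and the mitophagy kinase gene Pink1 (-0.75) fell too. For Ppargc1a the decreases started from different levels, at 58.9 to 72.1 CPM in Sham-LVH and 133 to 170 in Sham-HF. Its TAC hearts stood at 29.4 to 36.8 CPM in TAC-LVH and 42.5 to 82.0 in TAC-HF.

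Among genes of excitation, those of potassium channels were mostly lower. Of 27 potassium channel genes 20 fell and 3 rose (median -0.73; 15 and 5 under library totals), among them Kcnj3 (-1.36) and Kcnj5 (-1.09), the subunits of the channel that acetylcholine opens, and Kcnh2 (-1.34), which carries a repolarising current. Calcium handling genes were divided (median -0.00), 12 lower and 7 higher of 34, and under library totals 5 and 20. The decreases included the pump gene Atp2a2 (-0.76), the release channel gene Ryr2 (-0.82), the sarcoplasmic calcium-binding protein gene Hrc (-1.1302) and the kinase gene Camk2a (-1.114), and the L-type channel gene Cacna1c, in the list of other channels, fell with -0.72. In the adrenergic, muscarinic and cyclic nucleotide list, 18 of 54 rose and 19 fell (30 and 10 under library totals), with the receptors Adra1a (-1.32) and Adra1b (-1.36) and the phosphodiesterase Pde4d (-0.89) lower and the adenylyl cyclase Adcy7 (1.72) higher.

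Sarcomere and regulator genes followed. Of 25 load-induced and fetal genes of the muscle cell, 17 rose and 1 fell (median 0.70), including the actin-binding Xirp2 (1.9) and Ankrd23 (1.39). Of 24 adult sarcomere genes 11 fell and 2 rose, but 4 and 10 under library totals, and 9 and 5 under totals outside mitochondrially encoded genes. The 2-week cohort alone called 14 lower and 0 higher (median -0.39) and the 8-week cohort 7 and 6 (median -0.04), and 14 differed between the cohorts at an unadjusted p under 0.05. Myh6, the fast myosin of the adult mouse ventricle, fell 1.87-fold, and troponin T (Tnnt2, -0.61) and Cmya5 (-0.66) fell under TMM scaling as well. Cardiac transcription factor genes fell in 28 of 48 cases and rose in 7 (median -0.36), and under library totals in 8 and 14 (median 0.01). Under totals outside mitochondrially encoded genes they fell in 26 cases and rose in 8 (median -0.29). The thyroid hormone receptor gene Thrb (-0.81) was among the decreases, and Meox1, a homeobox gene of activated fibroblasts in the mouse heart, rose 5.54-fold. Of 30 muscle ubiquitin ligase and atrophy genes 17 fell and 2 rose, Asb15 and Fbxo31 (-0.98) with the decreases. Under library totals 5 fell and 8 rose, and under totals outside mitochondrially encoded genes 15 fell and 2 rose. Of 47 RNA splicing and RNA-binding factor genes 12 fell and 5 rose, against 21.2% and 21.9% of all genes. Under library totals 3 fell and 29 rose, and under totals outside mitochondrially encoded genes 8 fell and 8 rose. The splicing regulators Rbm20 (-0.61) and Rbfox1 (-1.209), which control titin and other muscle transcripts, were among the decreases.

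Cytoskeleton and cell cycle genes rose. Among 48 actin and tubulin cytoskeleton genes, 37 were higher and 2 lower (median 0.60), with the intermediate filament gene Vim at 0.93 and the actin-binding Tmsb10 at 1.2. Of 42 cell cycle and DNA replication genes 24 rose and 1 fell (median 0.62), the topoisomerase gene Top2a with 1.59 and the helicase subunit gene Mcm6 with 0.82. The decrease was that of Cenpf, a kinetochore and nuclear envelope protein, which fell 3.46-fold with no overlap in either cohort. Growth factor signalling genes were divided, with 10 higher and 9 lower of 36 in the insulin and IGF list (22 and 3 under library totals) and 16 and 9 of 43 in the neuregulin, EGF, FGF and PDGF list (29 and 5). Igf1, a growth factor gene, rose 2.44-fold, whereas Erbb4, the neuregulin receptor of heart muscle (-0.69), Fgf13 (-0.89) and Vegfb (-0.70) fell. Frzb, a secreted Wnt inhibitor (2.45), Ccn4, a Wnt-induced matricellular protein (2.55), Nox4, which makes reactive oxygen species (2.84), and the protease inhibitor gene Timp1 (3.03) rose.

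Ribosomal protein genes moved by small amounts in the same direction. Of 77 tested, 48 rose and 1 fell in the joint fit (median 0.27), while the 2-week cohort alone called 8 higher and the 8-week cohort alone 57. The medians of the separate fits were 0.19 and 0.33, and the difference between the cohorts was called for 0 of the 77 with edgeR (0 at an unadjusted p under 0.05). Under library totals the median was 0.64. Ribosomal protein genes have many near-identical pseudogene copies, so that reads may be divided among them. The one decrease was that of Rpl3l, the form of ribosomal protein L3 that is specific to heart and skeletal muscle. Rpl3l stood at 40.01, 32.3, 28.2 and 31.6 CPM in Sham-LVH and 7.52, 12.9, 13.96 and 10.2 in TAC-LVH, and at 34.4, 39.5, 39.95 and 45.5 in Sham-HF and 15.6, 21.6, 16.04 and 17.2 in TAC-HF (log2 fold change -1.37, SE 0.12, adjusted p = 5.5e-08). Its general counterpart Rpl3 moved the other way, from 46.9, 55.1, 63.3 and 49.04 to 88.9, 91.1, 84.5 and 91.8 CPM and from 43.96, 48.01, 44.1 and 42.9 to 78.1, 65.8, 71.3 and 64.9 (log2 fold change 0.69, SE 0.07, adjusted p = 9.5e-08). The groups of a cohort did not overlap for either gene, and both kept their direction under library totals. Of 45 translation factor and ribosome assembly genes, 11 rose and 12 fell, Eef1a1, the general elongation factor, with 0.68 and Polr1a, of the polymerase that makes ribosomal RNA, with -0.56 (not called under library totals); under library totals 31 rose and 0 fell.

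Lists of protein handling and of stress gave mixed results, and several depend on the scaling. Of 46 endoplasmic reticulum and secretory pathway genes, 16 rose and 3 fell (median 0.16; 41 and 0 under library totals). The 42 autophagy and lysosome genes held 17 increases and 9 decreases (34 and 0 under library totals), with the lysosomal proteases Ctsz (0.93) and Ctsk (1.81) higher. The 38 proteasome genes held 6 increases and 3 decreases in the joint fit (36 and 0 under library totals), whereas the 2-week cohort alone called 2 higher and 7 lower and the 8-week cohort alone 20 higher and 0 lower. Antioxidant and stress genes split into 13 higher and 10 lower of 48 (30 and 3 under library totals), the superoxide dismutase gene Sod1 with -0.64. Mitochondrial ribosomal protein genes fell in 18 of 75 cases, near the 21.2% of all genes, and rose in 0, below the 21.9% of all genes. Under library totals 1 of them fell and 33 rose. Alone, the 2-week cohort called 29 of them lower and 0 higher (median -0.33) and the 8-week cohort 4 lower and 8 higher (median 0.08). Mitochondrial import genes gave 17 lower and 1 higher, against 2 and 18 under library totals, and the separate fits gave 20 and 0 at 2 weeks and 6 and 8 at 8 weeks. For hypoxia and glycolysis genes, with glycogen synthase (Gys1, -0.61), the counts were 18 lower and 6 higher, against 10 and 19 under library totals. Under totals outside mitochondrially encoded genes, 10 mitochondrial ribosomal, 16 import and 15 hypoxia and glycolysis genes were lower, and 3, 5 and 7 higher. Of 31 calcineurin, NFAT, MEF2 and histone deacetylase genes, 11 fell and 3 rose, with Hdac11 at -0.94 and Mef2d at -0.46 (the latter not called under library totals), and under library totals 1 fell and 15 rose. In the interleukin-6 family list 8 of 25 rose and 8 fell (15 and 3 under library totals), among the latter the receptor gene Lifr (-0.65) and the transcription factor gene Stat5b (-0.44, not called under library totals). The clock list had 2 increases and 2 decreases among 21 genes, below the share of all genes, and its median of -0.12 turned to 0.25 under library totals.

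**Figure D4:**
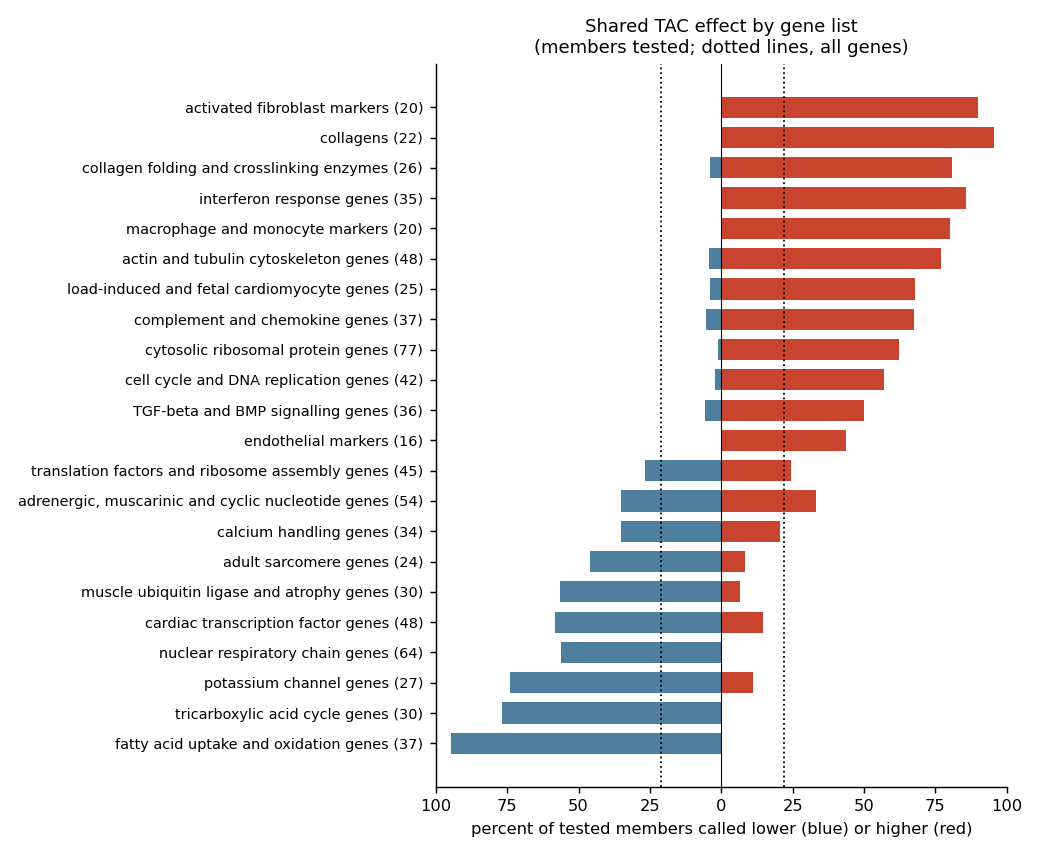
Percent of the tested members of 22 gene lists (number tested in parentheses) that were called higher (red, to the right) or lower (blue, to the left) in the joint fit; dotted lines mark the 21.9% higher and 21.2% lower among all genes. Collagens and activated fibroblast markers reach furthest to the right and fatty acid oxidation genes furthest to the left among the lists drawn, while translation factors lie near the dotted lines on both sides. Under library totals increases come to outnumber decreases for adult sarcomere, calcium handling, adrenergic, muscle ubiquitin ligase, cardiac transcription factor and translation factor genes. Under totals outside mitochondrially encoded genes this holds for calcium handling (12 higher, 11 lower), adrenergic (19 and 16) and translation factor genes (18 and 5). Decreases then still outnumber increases for adult sarcomere (9 against 5), muscle ubiquitin ligase (15 against 2) and cardiac transcription factor genes (26 against 8).

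The 993 genes that only the joint fit called were 498 higher and 495 lower. Of them, 168 were too rare to be tested in at least 1 cohort alone. The other 825 pointed the same way in both cohorts, with a median size of 0.287 on the log2 scale, or 1.2201-fold (quartiles 0.212 and 0.429), against 1.44-fold for the remaining shared calls. In the separate fits 118 of them had an unadjusted p under 0.05 in both cohorts, 534 in one and 173 in neither. A gene enters this class only by missing the threshold in both cohorts while passing it jointly, which favours small effects that are alike in the cohorts. Its small size, its agreement in direction and the lack of a called difference between the cohorts are therefore not findings. The difference between the cohorts was called for 0 of the 993 genes with edgeR, and 9 had an unadjusted p under 0.05 for it. TAC and sham values lay apart without overlap in both cohorts, in the same direction, for only 46 of the 993, against 15.2% of all genes tested. Under library totals 295 of the 993 changed sign, and 134 were again called in the joint fit but in neither cohort alone. Under totals outside mitochondrially encoded genes these numbers were 0 and 292.

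Among joint-only calls with a mean CPM of at least 2, the 10 increases with the smallest p are described first. Rarer genes had smaller p, such as Col9a2, a collagen IX chain chosen after its values were seen, which was too rare for a test in either cohort alone (mean CPM 0.372, joint adjusted p = 1.8e-06). Stk4, the Hippo pathway kinase MST1, was at 9.93, 13.6, 12.7 and 12.3 CPM in Sham-LVH and 15.4, 13.5, 14.4 and 14.02 in TAC-LVH, and at 10.3, 11.7, 11.2 and 11.4 in Sham-HF and 13.05, 12.6, 13.3 and 13.6 in TAC-HF (log2 fold change 0.24, SE 0.0653, adjusted p = 0.0052; 0.0847 and 0.0609 in the cohorts alone). Pkn2, a protein kinase gene, read 31.9, 33.7, 32.6 and 32.1 CPM in Sham-LVH and 37.1, 35.4, 37.1 and 37.2 in TAC-LVH, and 33.97, 31.1, 30.99 and 28.05 in Sham-HF and 35.03, 37.6, 33.98 and 38.4 in TAC-HF (log2 fold change 0.20, adjusted p = 0.0043; 0.0858 and 0.0617 alone). For Commd7, of a family that acts in endosomal sorting, the values were 4.37, 4.95, 4.16 and 4.35 CPM in Sham-LVH and 5.16, 4.98, 5.28 and 6.44 in TAC-LVH, and 3.8, 3.94, 4.27 and 3.64 in Sham-HF and 4.57, 4.52, 5.8 and 4.94 in TAC-HF (log2 fold change 0.32, adjusted p = 0.0041; 0.073 and 0.0684 alone). Pkn2 and Commd7 did not overlap between TAC and sham within either cohort, and Stk4 overlapped in the 2-week cohort. Syap1 (0.23), the lipid raft protein gene Rftn1 (0.24), the deubiquitinase gene Mindy3 (0.32), Pbdc1 (0.36), the ADP-ribose hydrolase gene Nudt5 (0.33) and the mRNA cap methyltransferase gene Rnmt (0.27) were among the others, at adjusted p of 0.0046 to 0.0054.

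The 10 joint-only decreases with the smallest p were selected with the same limit on CPM. Usp40, of a family of ubiquitin proteases, was at 21.2, 22.3, 19.5 and 20.6 CPM in Sham-LVH and 17.9, 17.2, 17.9 and 18.8 in TAC-LVH, and at 21.6, 21.01, 19.98 and 21.9 in Sham-HF and 16.9, 19.6, 16.7 and 18.5 in TAC-HF (log2 fold change -0.23, SE 0.054, adjusted p = 0.0021; 0.0536 and 0.0504 alone). Scamp1, a membrane protein of secretory carriers, read 13.3, 13.6, 12.5 and 14.4 CPM in Sham-LVH and 11.9, 10.1, 11.7 and 12.5 in TAC-LVH, and 14.7, 14.1, 15.2 and 15.1 in Sham-HF and 12.8, 12.3, 11.6 and 13.5 in TAC-HF (log2 fold change -0.23, adjusted p = 0.0044). Btbd2 read 9.33, 9.21, 10.8 and 9.86 CPM in Sham-LVH and 8.86, 8.79, 8.14 and 7.59 in TAC-LVH, and 10.9, 11.2, 11.9 and 10.5 in Sham-HF and 9.39, 8.95, 10.3 and 9.46 in TAC-HF (log2 fold change -0.23, adjusted p = 0.0057). These 3 genes had no overlap within either cohort under TMM scaling, yet turned to 0.15, 0.15 and 0.14 under library totals. Hey2, a Notch-responsive repressor of the ventricle, was at 2.16, 3.09, 3.15 and 2.75 CPM in Sham-LVH and 1.89, 2.05, 2.35 and 1.77 in TAC-LVH, and at 2.19, 1.48, 3.11 and 2.76 in Sham-HF and 1.52, 1.46, 1.89 and 1.46 in TAC-HF, with overlap in both cohorts (log2 fold change -0.52, adjusted p = 0.0051). The others were the transcription factor gene Elk1 (-0.33), Zfp866 (-0.24), the DNA repair gene Shld2 (-0.39), Ccdc167 (-0.40) and Zc3h7b (-0.25). Rbm15, of the complex that methylates adenosines in mRNA (-0.25), was another. Elk1, Zfp866, Rbm15 and Zc3h7b also turned sign under library totals, and none of the 10 was then called. Under totals outside mitochondrially encoded genes none of the 10 changed sign. Zfp866, Scamp1, Rbm15, Btbd2 and Zc3h7b then lost their call (adjusted p 0.058 to 0.072).

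**Figure D5:**
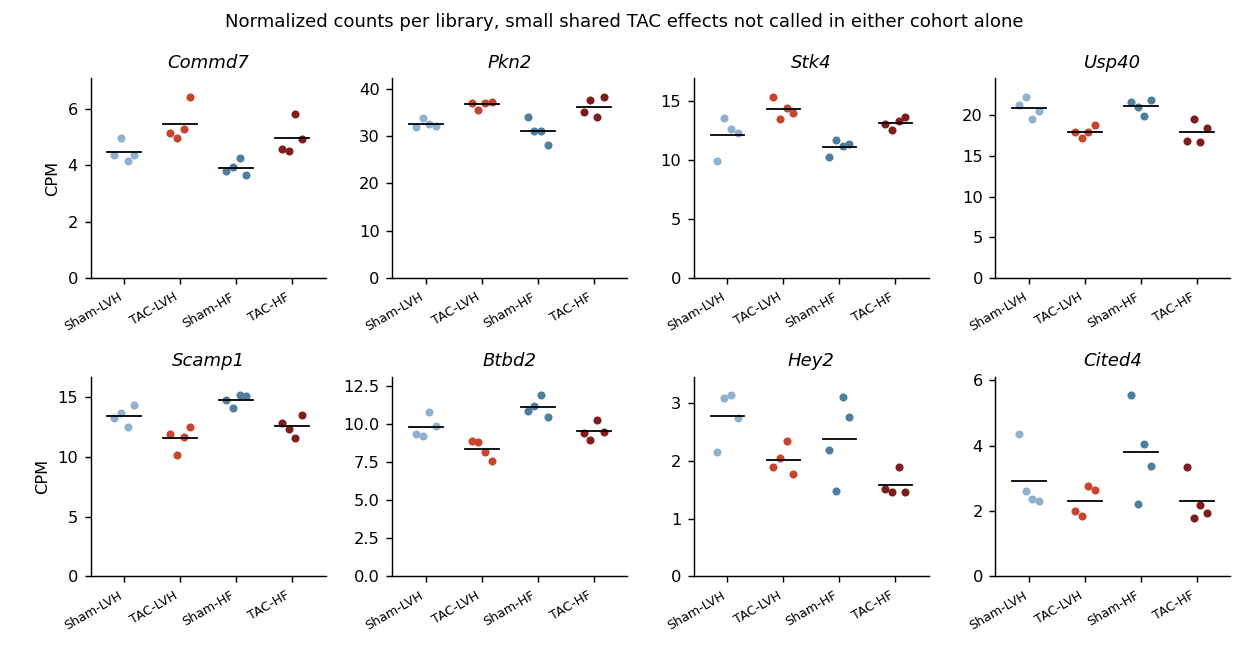
Normalized counts (CPM, linear axis from 0) of 8 genes that the joint fit called and neither cohort called alone; each point is a heart and the black line is the group mean. Commd7, Pkn2, Usp40, Scamp1 and Btbd2 show a small step without overlap in both cohorts, Stk4 overlaps in the 2-week cohort, and for Hey2 and Cited4 TAC and sham hearts overlap in both.

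Among the process lists the genes called only by the joint fit were spread thinly, with at most 4 in a list in either direction. Ribosomal proteins held 4 of 77, all higher, translation factors 4 of 45, all lower, the calcineurin, NFAT, MEF2 and histone deacetylase list 3 of 31, all lower, and cell cycle genes 3 of 42, all higher, against 3.44% higher and 3.42% lower of all genes tested. Other lists were mixed: endoplasmic reticulum genes held 2 higher and 1 lower, cardiac transcription factors 1 and 2, and the proteasome, autophagy, hypoxia and antioxidant lists 1 and 1 each. In the load-induced list Flnc, filamin C of the muscle cell, chosen after its values were seen, was one of 2 (log2 fold change 0.57, adjusted p = 0.0059; 0.0613 and 0.0761 alone).

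Dchs2, the Dachsous cadherin gene in the title of the series, was at 1.57, 0.874, 0.855 and 1.116 CPM in Sham-LVH and 5.41, 4.62, 5.32 and 4.78 in TAC-LVH, and at 1.218, 1.62, 1.42 and 1.0 in Sham-HF and 4.06, 4.56, 2.42 and 3.89 in TAC-HF. It rose 3.58-fold over both cohorts (log2 fold change 1.84, SE 0.16, adjusted p = 3e-08), and the difference between the cohorts was not called (-0.68, SE 0.302, adjusted p = 0.227). Its relative Dchs1 rose 1.8-fold and the Hippo coactivator gene Wwtr1, the gene of TAZ, 1.5-fold, while Celsr2, another atypical cadherin, fell 2.47-fold. Over the 31 atypical cadherin and Hippo genes 14 rose and 6 fell (median 0.16). Cebpb and Cited4, transcription regulators, are tied in mice to exercise growth of the heart. Cebpb had 0.12 (adjusted p = 0.739), with -0.59 at 2 weeks (adjusted p = 0.176) and 0.77 at 8 weeks alone, where it was called without overlap (adjusted p = 0.0053; difference 1.36, adjusted p = 0.0869). Cited4 was at 4.37, 2.62, 2.37 and 2.31 CPM in Sham-LVH and 2.0, 1.85, 2.78 and 2.66 in TAC-LVH, and at 5.56, 2.23, 4.06 and 3.39 in Sham-HF and 3.35, 1.79, 2.2 and 1.94 in TAC-HF, with overlap in both cohorts. The joint fit called it lower (log2 fold change -0.53, SE 0.19, adjusted p = 0.032), but this call was lost when any 1 of 8 libraries was left out (Sham-LVH 1, TAC-LVH 1 and 2, Sham-HF 1 and 3, TAC-HF 2, 3 and 4; adjusted p 0.053 to 0.089).

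An additive term describes a gene well only where the cohorts respond alike. The difference between the cohorts' effects was called for 196 genes (1.36% of those tested; 2764 at an unadjusted p under 0.05), of which 101 also had a shared call. That number rests on single libraries. It ranged from 22 without Sham-LVH 2 to 654 without Sham-LVH 1, and leaving out any of the other libraries except Sham-LVH 4 also moved it by more than 1.5 times, while DESeq2 gave 621. Bdh1, which makes and burns the ketone body beta-hydroxybutyrate, illustrates a shared call that came from one cohort. It stood at 35.2, 35.8, 31.4 and 30.9 CPM in Sham-LVH and 29.5, 32.5, 35.4 and 31.4 in TAC-LVH, which overlap, and at 39.2, 26.1, 33.6 and 31.7 in Sham-HF and 73.2, 59.7, 72.4 and 67.9 in TAC-HF, which do not. Its joint log2 fold change of 0.51, a call that was lost without a filter on low counts (adjusted p = 0.052), averages -0.05 and 1.06 (difference 1.113, SE 0.149, adjusted p = 0.0024). Pitpnm1, a phosphatidylinositol transfer protein gene, was likewise level at 2 weeks, with 6.35, 5.94, 6.84 and 6.25 CPM in Sham-LVH and 5.88, 6.86, 5.94 and 6.64 in TAC-LVH, and lower at 8 weeks, with 8.82, 8.81, 8.49 and 8.53 in Sham-HF and 3.81, 5.53, 4.79 and 4.34 in TAC-HF (difference -0.90, adjusted p = 0.0148).

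Other genes moved mainly at 2 weeks. Bmp1, the proteinase that trims procollagen, went from 10.7, 10.3, 11.04 and 11.1 to 26.8, 24.3, 20.98 and 25.003 CPM in the 2-week cohort and from 12.6, 11.2, 12.02 and 12.4 to 13.2, 16.5, 13.98 and 15.9 in the 8-week cohort (difference -0.86, adjusted p = 0.0088). Taco1, a translational activator of a mitochondrial oxidase subunit, went from 14.97, 16.1, 17.6 and 16.9 to 8.02, 8.99, 10.6 and 10.5 CPM, and stood at 13.1, 13.1, 11.6 and 13.4 in Sham-HF and 13.6, 14.3, 12.6 and 13.3 in TAC-HF (difference 0.85, adjusted p = 0.0133). Bmp1 separated TAC from sham in both cohorts, and Taco1 in the 2-week cohort only. The coenzyme Q gene Coq5 had -0.73 and -0.05 and Tmem143 -1.1 and -0.38, while Ugp2, which makes UDP-glucose for glycogen, had 0.28 and 1.1799 (adjusted p of the difference 0.0148, 0.0148 and 0.0148). Under library totals the joint value of Taco1 turned to 0.0077, and those of Taco1, Coq5 and Pitpnm1 were not called. In all, 87 of the 101 genes with both calls had the larger effect at 2 weeks and 14 at 8 weeks.

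Conversely, 1135 genes were called in a cohort alone and not in the joint fit, 588 at 2 weeks and 562 at 8 weeks, counting 15 that were called in both cohorts in opposite directions. For 760 of them the cohorts had opposite signs, and for 95 the difference between the cohorts was called. In the other direction, all 2346 genes called in both cohorts alone with the same sign were also called jointly.

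The shared TAC effect was then compared with that of wheel running, another cause of heart growth, in the 8 libraries from running and sedentary mice, which share no control with TAC. The difference between the mean TAC effect and the running effect was called for 2857 of 14735 genes (19.4%), 2711 of which had a shared TAC call. Running itself gave 0 calls of 13824 genes (edgeR), with 665 at an unadjusted p under 0.05. The TAC increases of Nppa (TAC minus running 4.44, adjusted p = 1.6e-09), Igfbp7 (1.73, 4.3e-10), Postn (3.7, 4.5e-08) and Dchs2 (2.3, 3.2e-05) differed from running, as did the decreases of Phkg1 (-2.0, 4.1e-08), Slc27a1 (-1.187, 2.5e-05) and Myh6 (-0.84, 8.5e-06). Igfbp7, Postn, Phkg1 and Slc27a1 were named for their TAC effects in the same libraries, so their differences partly repeat that choice. Nppa, Dchs2 and Myh6 were also set by name. Running alone gave -0.27 for Nppa, -0.02 for Igfbp7, 0.12 for Postn, -0.48 for Dchs2, -0.02 for Phkg1 and -0.07 for Myh6. Of the 20 small changes selected by p (10 increases and 10 decreases), the difference was called for 2, Rftn1 (0.42, 0.0066) and Hey2 (-0.80, 0.0141). For Cited4 it was -0.04 (adjusted p = 0.966).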

How the data were processed

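Total RNA of frozen mouse hearts was depleted of ribosomal RNA and sequenced. The deposited values are estimated counts per gene (expected counts as whole numbers), which the authors made with Salmon and build mm9, per the submitters' processing notes, which give no version; the strand setting is not given in the sources used here. Symbols and biotypes were matched by gene ID to GENCODE M21 on GRCm38 for 42462 of 43432 IDs, and 1 row without a gene held 0 counts. Total counts were 17998364 to 30353572 per library, and their number limits the precision for rare genes.

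The 16 TAC and sham libraries were fitted with edgeR 4.0.16 in R 4.3.3 (quasi-likelihood, robust, TMM factors, filterByExpr), with TAC and cohort as terms. Calls are Benjamini-Hochberg adjusted p under 0.05 over all genes tested. The difference between cohorts came from an interaction term, each cohort was also fitted alone, and the running comparison used all 24 libraries. CPM are counts scaled to a common library size with the TMM factors and are not corrected for gene length. The fits were tested on simulated data. For the 6 measures of the libraries, exact permutation tests (two-sided) rearranged TAC and sham within cohorts.

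Named genes were taken by rule: the 8 largest changes per direction without overlap in either cohort and a mean CPM of at least 2, the 8 with the smallest p, the 10 with the smallest p among calls that neither cohort made alone, 4 per direction with the smallest p for the difference between cohorts, the 4 with the smallest p per list, and 10 genes set by name. Some genes that the rule took are not reported here. Flnc and Col9a2 were chosen after their values were seen. The members and the 55 gene lists were chosen with earlier results of these data known. Replicate numbers do not pair the libraries: same-number correlations of the deviations from group means were -0.18 to 0.19. Alternatives were DESeq2 1.42.0, other scalings and filters, a replicate block, no cohort term and leaving out each library.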

Additional observations from a re-analysis of the deposited data

Results flagged for a closer look

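Among 144 groups of 4 libraries tested for a library far from its group (30 genes and 6 measures of the libraries), 5 had one, fewer than the 1 in 20 that chance gives. Ankrd1 was highest in Sham-HF 1, at 264 CPM against 173 to 184 in the other Sham-HF hearts. Svep1 was lowest in Sham-HF 4, at 16.3 CPM. Pkn2 was lowest of the TAC-LVH hearts in TAC-LVH 2, at 35.4 CPM, which was still above all Sham-LVH hearts. Hey2 was highest of the TAC-HF hearts in TAC-HF 3, at 1.89 CPM. Cited4 was highest of the Sham-LVH hearts in Sham-LVH 1, at 4.37 CPM, and its call was lost without that library (adjusted p = 0.089).

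Effects that differed between the cohorts were called for 9 of the genes described, each by the interaction term, and the values are log2 fold changes at 8 weeks minus those at 2 weeks. All of them except Cmya5 were taken for their small p in this same comparison, so their presence here repeats that choice. Over all genes tested the difference was called for 196 (1.36%). Acta1 (1.65), Bdh1 (1.113) and Ugp2 (0.91) rose more at 8 weeks, and Bmp1 (-0.86) rose more at 2 weeks. Pitpnm1 (-0.90) was lower at 8 weeks, and Taco1 (0.85), Coq5 (0.69), Tmem143 (0.73) and Cmya5 (0.55) had their larger decreases at 2 weeks. Cmya5, a muscle protein that anchors signalling proteins near the sarcomere, had -0.93 at 2 weeks and -0.39 at 8 weeks (adjusted p of the difference = 0.0464).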

How the results depend on the processing

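The number of shared calls (6238) stayed within 1.5 times that number under every alternative run, from 4424 at a threshold of 0.01 to 9346 under library totals, with 5473 without a cohort term, 6350 with DESeq2 and 5738 to 6341 when 1 library was left out. Library totals turned the split to 8578 higher and 768 lower, and totals outside mitochondrially encoded genes to 4013 and 2264. Under the latter totals, 0 of the genes described changed sign and 6 lost their call. Under library totals genes without overlap numbered 3815 in place of 2194, list members called were 868 higher and 150 lower, and 8 of the genes described changed sign (Usp40 0.15, Elk1 0.034, Zfp866 0.14, Scamp1 0.15, Rbm15 0.12, Btbd2 0.14, Zc3h7b 0.13 and Taco1 0.0077), while 9 more lost their call. The 993 calls made in neither cohort alone were 861 to 1151 when 1 library was left out, 788 when each cohort was tested within the fit of all 16 libraries, and 296 when an unadjusted p of at least 0.05 was asked in both cohorts.

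The count of differences between the cohorts (196) was the least stable. It was 30 under library totals, 621 with DESeq2, 656 with the replicate block and 22 to 654 when 1 library was left out. With the replicate block the shared calls were 5938 and those in neither cohort 814, and of the genes described Bdh1 alone lost its call (adjusted p = 0.061). Of the shares of counts, that of haemoglobin (0.0174 percentage points) was 0.0164 outside mitochondrial genes (exact permutation p = 0.387), and 0.00957 to 0.0216 when 1 library was left out; the number of genes with a count (348 more after TAC) ranged from 187 to 460.3. The comparison with running gave 2370 to 3033 calls when 1 library was left out. The causes of these shifts were not tested. Depth limits rare genes: 378 of the 993 had a mean CPM under 2.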

Other observations

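Transcripts other than those of protein-coding genes moved unevenly, a pattern noticed in the data and given without a test. Of 12873 protein-coding genes tested, 3055 were called higher and 2675 lower after TAC. Of 219 long intergenic RNAs (lincRNA), 14 were higher and 65 lower, of 280 antisense transcripts 12 and 89, and of 322 transcripts of unverified status in the annotation (TEC) 6 and 94. Small nucleolar RNAs, which guide the modification of ribosomal RNA and often lie in introns of host genes, went the other way, with 22 of 68 higher and 1 lower. Antisense and many TEC transcripts share sequence positions with genes on the other strand, the strand setting is not given in the sources used here, and unspliced RNA of host genes could not be separated from them.

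Markers of Schwann cells, the glia of nerves, gave 3 lower and 0 higher of 6 tested (median log2 fold change -0.37, and 0.00 under library totals). Lymphatic endothelial markers gave 6 higher and 1 lower of 8 (median 0.37). Their sum overlapped in both cohorts, with 100 to 114 CPM in Sham-LVH and 109 to 118 in TAC-LVH. In the 8-week cohort it was 94 to 112 CPM in Sham-HF and 97.7 to 108 in TAC-HF.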
